A study of Mus musculus with 5 samples.

Results

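The immediate early genes Fos, Fosb, Jun, Junb, Egr1 and Ier2, and the axon injury genes Atf3, Sprr1a, Gap43 and Sox11, were followed through the cell types of the mouse dorsal root ganglion. These 10 genes were taken from a list of names and matched to the symbols of the 17267 gene entries in the count matrix. Each of the 10 was found once. Lumbar ganglia came from 5 adult wild-type (WT) C57BL/6 mice aged 18 weeks, 3 males and 2 females, which received no treatment, and the single cells were captured with the Chromium 3′ assay of 10x Genomics, in which transcripts are counted by unique molecular identifiers (UMIs). The ganglia were digested with collagenase P for 90 min and trypsin for 10 min before capture. All cells shared this dissociation and no undissociated ganglion was analysed here, so levels in the intact ganglion and levels acquired during dissociation cannot be told apart. The deposited annotation gave each of the 3352 cells 1 of 14 types, of which 12 were neuronal with 3047 cells: neurofilament-containing (NF), non-peptidergic (NP) and peptidergic (PEP) neurons and neurons with tyrosine hydroxylase (Th), beside 249 satellite glia and 56 endothelial cells.

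Immediate early genes are transcribed within minutes of a stimulus without new protein synthesis, and many encode transcription factors. FOS and JUN family proteins pair to form the AP-1 factor, and sensory neurons are known to raise these genes after strong stimulation, nerve injury and tissue dissociation. ATF3, SPRR1A, GAP43 and SOX11 are induced in dorsal root ganglion neurons whose axons have been cut, and GAP43 is also present in some intact sensory neurons.

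The cell names carried 5 library identifiers, taken here as 5 mice and numbered in the order of the identifiers, and no library was assigned to a sex. The libraries held 164 to 1370 cells, with a median of 52499.5 to 72840 UMIs per cell. The median per type ran from 16889 UMIs in endothelial cells and 17729 in satellite glia to 30800.5 in PEP3_Trpm8 and 105150 in NP_Mrgprd. The sum of a type in a library rested on 3 to 463 cells, 7 barcodes occurred in 2 libraries, and 188 cells, 61 of them in library 3, had a mitochondrial share above 10%. The 8 markers of satellite glia summed to 81199 to 104889 CPM (counts scaled to 1 common library total) in satellite glia and to 721 to 1369 CPM in neurons, and the 8 endothelial markers to 6754 to 9986 CPM in endothelial cells and 42.9 to 60.2 CPM in neurons. Neuron markers summed to 267 to 1035 CPM in the non-neuronal cells. Satellite glia markers were highest among neurons in NF_Calb1, NF_Pvalb, NF2_Ntrk2.Necab2 and PEP2_Htr3a.Sema5a, at 2386 to 3934 CPM, and their part in the levels below was not tested. Not all 8 markers made up these sums. Cdh19 had no UMI in NF_Calb1, Cdh19 and Sox10 none in NF_Pvalb, and Kcnj10, Cdh19 and Sox10 none in NF2_Ntrk2.Necab2. In PEP2_Htr3a.Sema5a all 8 had UMIs. A level below is the CPM of the summed cells of a type in a library, that is the count of a gene scaled to the total of the sum, and levels are compared between types and not between genes.

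On the GRCm38 build Fos is at chr12:85473890-85477273 on the plus strand, and the following are on the minus strand: Fosb at chr7:19302696-19310051, Jun at chr4:95049034-95052222, Junb at chr8:84974484-84978718, Ier2 at chr8:84661331-84662852, Atf3 at chr1:191170296-191218039, Sprr1a at chr3:92483952-92485895, Gap43 at chr16:42248442-42340651 and Sox11 at chr12:27334264-27342574. All are protein-coding. The RefSeq promoter table held 7 of the 10 genes, without Egr1, Ier2 and Gap43. The 250 bases before the RefSeq start are shown for 4 genes, Fos, Jun, Atf3 and Sprr1a, each with a match to a motif below. Fosb and Junb, which also differed together with Fos and Atf3 between neurons, had no match and are not shown. The Atf3 window lies inside the gene span given above, before a start within it. Capitals mark matches, on either strand, to the AP-1 heptamer TGANTCA, the octamer TGACNTCA, the half-site TGACGT of the cyclic AMP response element, which overlaps the octamer where N is G, and TATAAA.
Fos, chr12:85473640-85473889, plus strand: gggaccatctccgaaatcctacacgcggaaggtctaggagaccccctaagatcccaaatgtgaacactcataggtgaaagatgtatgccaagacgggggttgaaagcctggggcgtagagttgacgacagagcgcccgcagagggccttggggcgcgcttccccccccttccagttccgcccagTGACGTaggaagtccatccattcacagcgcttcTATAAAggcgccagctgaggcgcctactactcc
Jun, chr4:95052223-95052472, minus strand: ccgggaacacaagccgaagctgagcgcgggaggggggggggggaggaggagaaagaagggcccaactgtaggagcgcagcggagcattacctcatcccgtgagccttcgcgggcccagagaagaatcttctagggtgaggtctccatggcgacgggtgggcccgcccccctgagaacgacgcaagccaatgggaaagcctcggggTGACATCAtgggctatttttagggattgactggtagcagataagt
Atf3, chr1:191183334-191183583, minus strand: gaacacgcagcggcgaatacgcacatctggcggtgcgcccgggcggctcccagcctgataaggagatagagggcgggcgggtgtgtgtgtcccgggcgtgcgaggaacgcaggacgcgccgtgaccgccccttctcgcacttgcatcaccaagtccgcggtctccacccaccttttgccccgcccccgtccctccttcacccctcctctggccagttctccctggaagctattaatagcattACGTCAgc
Sprr1a, chr3:92485882-92486131, minus strand: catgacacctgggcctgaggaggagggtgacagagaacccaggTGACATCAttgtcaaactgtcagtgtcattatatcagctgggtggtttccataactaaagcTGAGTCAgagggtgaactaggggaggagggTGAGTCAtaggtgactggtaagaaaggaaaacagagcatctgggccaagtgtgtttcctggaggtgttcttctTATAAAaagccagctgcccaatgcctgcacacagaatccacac

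The Sprr1a window held 2 heptamers, ending 140 and 110 bases before the start, and 1 octamer ending 200 bases before it. The Fos window held the half-site TGACGT 66 to 61 bases before the start, the Atf3 window its reverse complement ACGTCA 8 to 3 bases before the start, and the Jun window the octamer TGACATCA 45 to 38 bases before the start. The Sox11 window held 1 octamer, and the Fosb and Junb windows had no match. Of 32851 promoter windows of the same length, 6.75% held the heptamer, 7.49% the octamer, 6.47% the half-site and 12.4% TATAAA. The CArG box, the site of serum response factor, was in 1.47% of all windows and in none of the 7. A match describes these letters only.

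**Figure D1:**
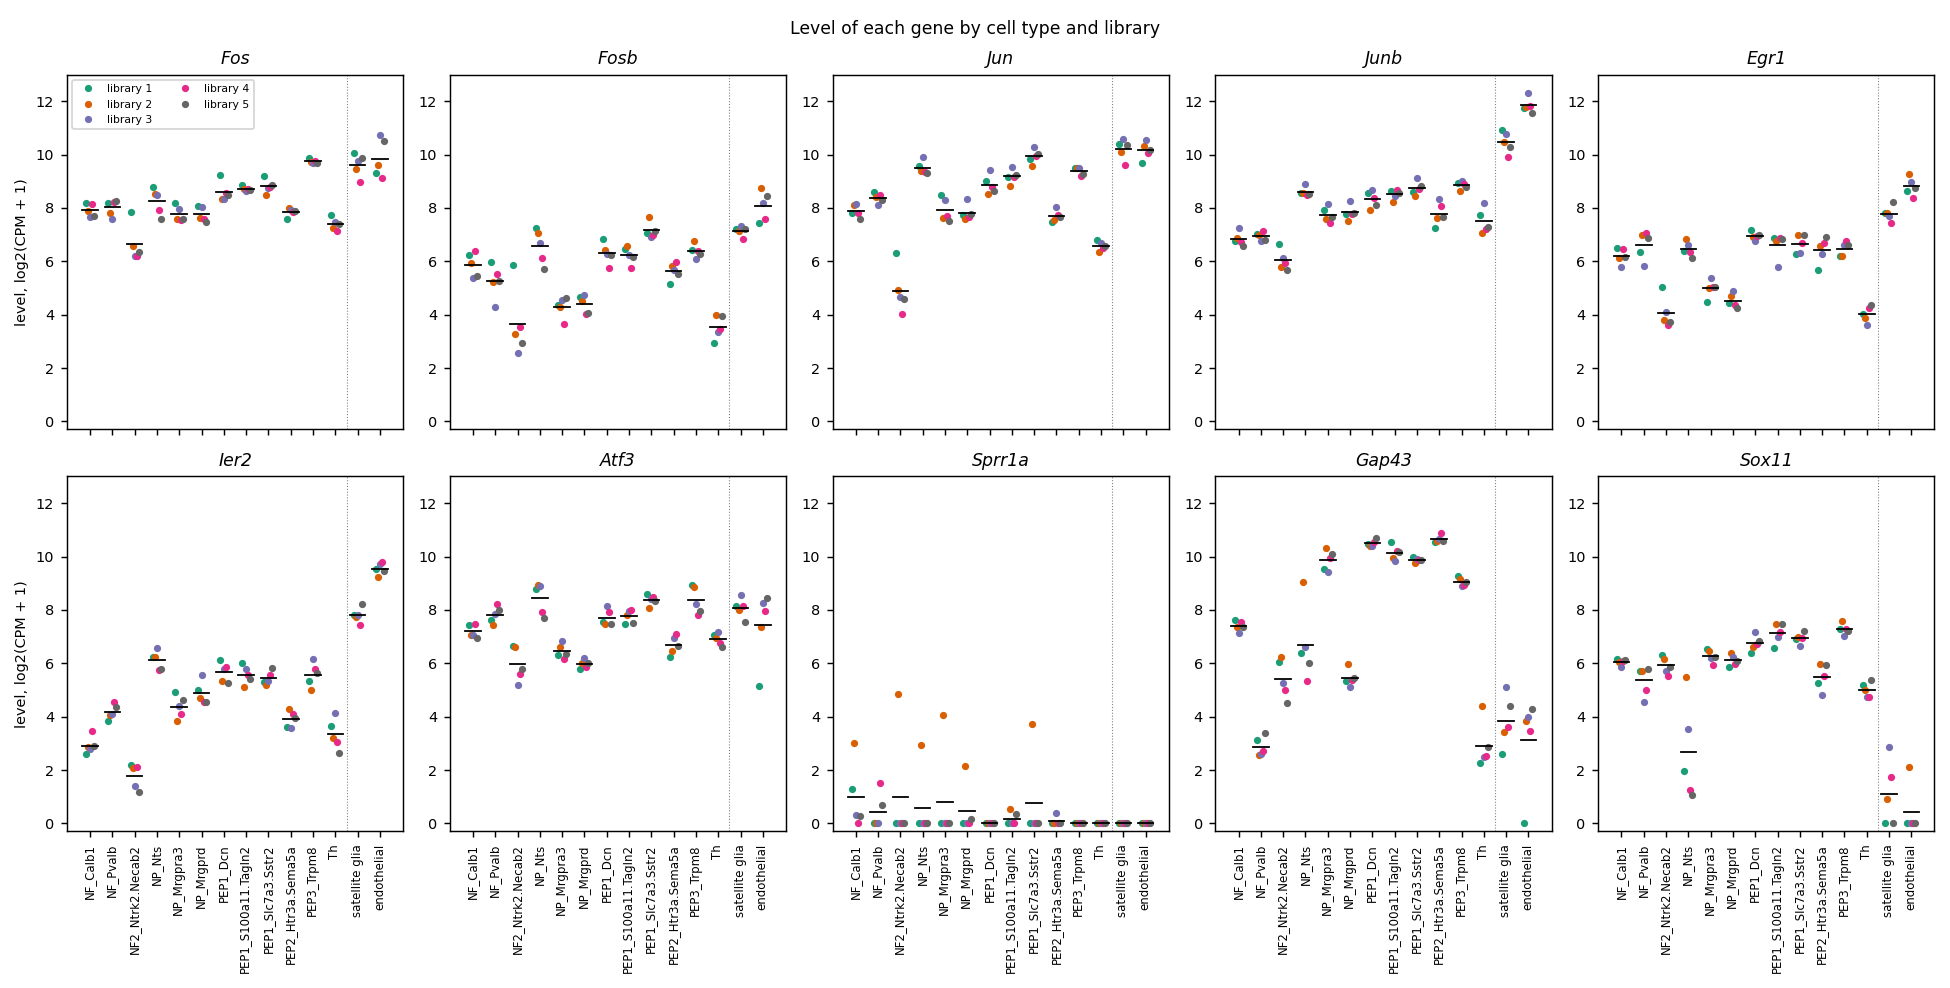
Level of each gene, as log2(CPM + 1), in the 14 annotated types (x axis), with 1 point per library and a bar at the mean of the 5 libraries; neurons are left of the dotted line. Gap43 spans from 6.54 CPM in NF_Pvalb to 1620 CPM in PEP2_Htr3a.Sema5a, whereas Sprr1a is at or near 0 in most types and its higher points belong to library 2.

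Satellite glia and endothelial cells had higher shares of immediate early transcripts than the neurons captured beside them. Fos, the partner of JUN proteins in AP-1, was at 326, 249.8, 279, 258 and 229.7 CPM in the neurons of libraries 1 to 5. In satellite glia it was at 1064, 702, 857, 497 and 941 CPM. In endothelial cells it was at 635, 777, 1691, 551 and 1441 CPM. Every non-neuronal sum lay above every neuronal one, and endothelial levels spread most. Satellite glia markers summed to 1544 to 15540 CPM in endothelial cells, highest in library 5, and their part was not tested. Compared with all neurons, 9 of the 9 testable genes were called in satellite glia, 7 higher and 2 lower, where 54.2% of all genes were called. In endothelial cells 8 of 9 were called, 6 higher and 2 lower, where 58.7% of all genes were called. A gene was called at an adjusted p under 0.01 and a difference of at least 2-fold, and Sprr1a did not pass the filter on low counts in any comparison. With most genes called, the counts say little by themselves, and the direction is described by the median log2 fold change, which was 1.78 over the 9 genes and -0.35 over all genes in satellite glia, and 1.57 and -1.25 in endothelial cells.

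Of the genes higher in non-neuronal cells, Ier2, a small nuclear protein induced by growth factors, differed most. Its levels were 28.7, 24.95, 35.3, 29.1 and 26.6 CPM in neurons. In satellite glia they were 224, 213, 220.5, 173 and 300.3 CPM, and in endothelial cells 738, 595, 842, 884 and 702 CPM. The 3 groups of cells did not overlap. The log2 fold change against neurons was 3.101 ± 0.13 (SE, adjusted p = 5.0e-13) in satellite glia and 4.32 ± 0.16 (SE, adjusted p = 9.5e-15) in endothelial cells. Junb, a JUN family member, followed, with 234, 205, 309, 259 and 243 CPM in neurons and 3466, 3556, 5066, 3624 and 3030.5 CPM in endothelial cells. Satellite glia lay between, at 1456 ± 376 CPM (SD, n = 5), and again no libraries overlapped between the groups. The Junb log2 fold change was 2.71 ± 0.17 in satellite glia (SE, adjusted p = 1.3e-10) and 3.53 ± 0.17 in endothelial cells (SE, adjusted p = 9.7e-13).

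Egr1, a zinc finger factor, stood at 53.8 ± 3.65 CPM in neurons, 224 ± 44.4 in satellite glia and 458 ± 111 in endothelial cells (SD, n = 5). Its log2 fold changes were 2.18 and 2.75 (adjusted p = 1.7e-11 and 2.9e-11). Fosb, a FOS family member, was higher by 1.78 and 2.36 on the log2 scale (adjusted p = 2.5e-09 and 5.7e-09), Jun by 1.97 and 1.41 (adjusted p = 3.6e-09 and 4.6e-07), and Fos by 1.75 and 1.57 (adjusted p = 2.6e-08 and 1.3e-05). Atf3, a stress-induced factor that dimerises with JUN, was at 282, 257, 374, 285 and 188 CPM in satellite glia and at 148, 141, 175, 146 and 118 CPM in neurons. Its log2 fold change in satellite glia was 1.13 ± 0.16 (SE, adjusted p = 3.5e-06), and 0.86, short of 2-fold, after each cell was thinned to 10000 UMIs. In endothelial cells Atf3 ran from 34.3 to 351 CPM and was not called, with a log2 fold change of 0.32 ± 0.24 (SE, adjusted p = 0.233).

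These directions hold for shares of transcripts. Non-neuronal cells had fewer UMIs in all, and counted as mean UMIs per cell only Junb and Ier2 stayed higher in satellite glia than in neurons, at 26.1 against 17.8 and 3.89 against 2.02. Fos was at 13.7 UMIs per satellite glial cell and 18.1 per neuron, Jun at 21.7 and 24.2, Fosb at 2.57 and 3.07, Egr1 at 3.84 and 3.87, and Atf3 at 5.48 and 9.87. In endothelial cells Junb with 66.2, Ier2 with 12.6, Egr1 with 8.25 and Fosb with 5.29 UMIs per cell stayed above neurons, while Fos with 17.8 and Jun with 21.1 did not.

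**Figure D2:**
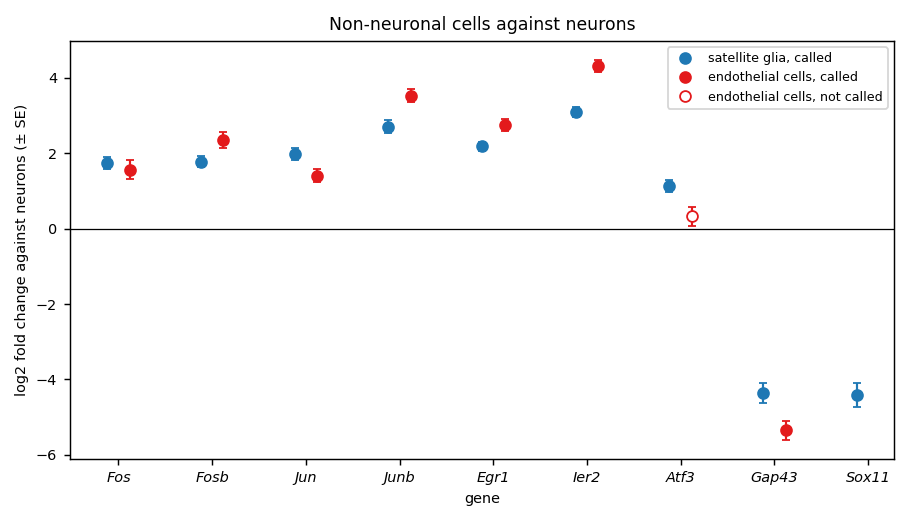
Log2 fold change ± SE (y axis) of 9 genes in satellite glia and endothelial cells against all neurons, from sums per library (n = 5 libraries); filled points were called and the open point was not. The immediate early genes lie above 0 on this scale of transcript shares, with Ier2 at 3.101 and 4.32, and Gap43 lies below at -4.36 and -5.34; Sox11 in endothelial cells, with 1 UMI in all, is left out.

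Between satellite glia and endothelial cells, 4 of the 7 testable genes were called, all lower in satellite glia, where 43.7% of all genes were called. Ier2 had a log2 fold change of -1.88 ± 0.17 (SE, adjusted p = 2.6e-08) and Junb of -1.49 ± 0.21 (SE, adjusted p = 8.3e-06). Fosb and Egr1 differed by -1.24 and -1.23 (adjusted p = 1.5e-04 and 3.6e-05), but fell short of 2-fold without the low-count filter, Fosb also without library 2 and Egr1 without library 3. Fos with -0.48, Jun with -0.10 and Atf3 with 0.13 were not called.

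The 2 growth-associated genes went the other way. Gap43, a growth cone protein and substrate of protein kinase C, was at 339 to 459 CPM in neurons, at 5.04, 9.79, 33.3, 11.1 and 20.2 CPM in satellite glia, and at 0, 13.2, 14.8, 9.93 and 18.5 CPM in endothelial cells. Its log2 fold changes were -4.36 ± 0.26 and -5.34 ± 0.25 (SE, adjusted p = 3.8e-11 and 4.1e-13). Sox11, a transcription factor of the SoxC group, was at 61.1 to 81.1 CPM in neurons and 0 to 6.24 CPM in satellite glia, where 13 UMIs were counted in all and the log2 fold change was -4.42 ± 0.32 (SE, adjusted p = 8.8e-10). Endothelial cells held 1 Sox11 UMI of 941065, a ratio of 0.0154 to neurons with an exact Poisson interval of 0.000389 to 0.0857 that covers counting error only.

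Each neuronal type was compared with all other neurons of the same libraries. That side was a sum of UMIs, so types with many deep cells weighed most in it. The largest part came from NP_Mrgprd, with 900 cells at a mean of 102495 UMIs, except in its own comparison. The sums of all neurons used above were made in the same way. The part of NP_Mrgprd in the fold changes was not tested. These comparisons share most of their control cells, and the types were themselves made by clustering the same cells over many genes. The p-values set a difference against the scatter of sums over 5 libraries, without pairing by library. They are no independent test of the types. NF2_Ntrk2.Necab2 was lower in 8 of the 9 testable genes and higher in none, where 20.5% of all genes were called, with a median log2 fold change of -2.02 over the 9 genes and -0.07 over all. Th was lower in 6 and higher in none, where 19.7% were called, with medians of -1.68 and 0.02. PEP1_Slc7a3.Sstr2 was higher in 5 and lower in none, where 18.9% were called, with medians of 1.03 and -0.04. In PEP3_Trpm8 4 were higher and none lower, where likewise 18.9% were called. NP_Nts had 4 higher and 1 lower, where 23.5% were called. NP_Mrgprd had 4 lower and none higher, where 25.7% were called.

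In the other types 2 or 3 members were called. PEP1_S100a11.Tagln2 had 3 higher, where 12.5% of all genes were called. PEP1_Dcn had 2 higher, where 15.3% were called. PEP2_Htr3a.Sema5a had 1 higher and 1 lower, where 18.5% were called, and NP_Mrgpra3 had 1 higher and 1 lower, where 13.8% were called. NF_Calb1 had 3 lower, where 29.7% were called. NF_Pvalb had 2 lower, where 30.3% were called, so its 2 calls of 9 were below the background share. Over the 12 neuronal types, Gap43 was called in 10, 5 higher and 5 lower, and Fos in 2. In these 12 comparisons 12.5% to 30.3% of all genes were called, so the 2 calls of Fos were near the background share.

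Fos was highest among neurons in PEP3_Trpm8, cells named for the cold-sensing channel gene Trpm8, at 937, 843, 813, 875 and 813 CPM. It was lowest in NF2_Ntrk2.Necab2, at 229, 94.2, 73.1, 73.2 and 80.3 CPM, where library 1, with 3 cells, stood above the others. The next type below PEP3_Trpm8 was PEP1_Slc7a3.Sstr2 at 358 to 590 CPM, the only neighbour in the order of the 12 types whose libraries did not overlap. The log2 fold change was 1.76 ± 0.10 in PEP3_Trpm8 (SE, adjusted p = 6.1e-10) and -1.47 ± 0.21 in NF2_Ntrk2.Necab2 (SE, adjusted p = 2.0e-05). Both types kept their place when Fos was counted as UMIs per cell, at 27.3 and 8.60, although the ratio of the highest to the lowest type shrank from 7.78 to 3.17. In Th, Fos was at 170 ± 28.3 CPM (SD, n = 5), with a log2 fold change of -0.68 that did not reach 2-fold.

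Jun varied more widely. It was at 911, 768, 1239, 987 and 1041 CPM in PEP1_Slc7a3.Sstr2, at 111, 80.7, 103, 88.5 and 93.7 CPM in Th, and at 78.8, 29.2, 24.4, 15.2 and 23.0 CPM in NF2_Ntrk2.Necab2. The libraries of these 3 types did not overlap, and the highest and lowest types differed 29.0-fold in CPM and 15.6-fold in UMIs per cell. The log2 fold change of Jun was 1.71 ± 0.14 in PEP1_Slc7a3.Sstr2 (SE, adjusted p = 3.4e-08) and -1.92 ± 0.12 in Th (SE, adjusted p = 3.3e-09). In NF2_Ntrk2.Necab2 it was -3.70 ± 0.24 (SE, adjusted p = 1.5e-09). In NP_Nts, at 770.2, 667, 966, 645 and 634 CPM, Jun was higher by 1.23 ± 0.12 (SE, adjusted p = 6.0e-07), and by 0.85 after thinning, short of 2-fold. The call in PEP3_Trpm8, at 1.00 ± 0.11 (SE, adjusted p = 1.3e-06), rested on the threshold: it was lost in 7 alternatives, with values of 0.74 to 0.99, among them without library 1 or without library 2, and Jun per cell was lower there, at 20.9 UMIs, than in neurons as a whole.

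Fosb was highest in PEP1_Slc7a3.Sstr2, at 133, 203, 119, 127 and 141 CPM, and lowest in Th, at 6.74, 14.9, 9.24, 9.91 and 14.6 CPM. The log2 fold changes were 1.89 ± 0.15 (SE, adjusted p = 1.9e-08) and -2.02 ± 0.19 (SE, adjusted p = 2.5e-07). Fosb was also lower in NP_Mrgprd, at -1.42, and in NF2_Ntrk2.Necab2, at -2.06 (adjusted p = 9.3e-07 and 6.8e-05), the latter not called by DESeq2. It differed by -1.19 in NP_Mrgpra3 (-0.97 after thinning) and by 1.16 in NP_Nts (0.59 after thinning), and neither call survived the thinning. Junb had the narrowest range in CPM after Atf3, from 66.7 ± 20.0 in NF2_Ntrk2.Necab2 to 463 ± 45.6 in PEP3_Trpm8 (SD, n = 5), with no pair of neighbours free of overlap. Counted as UMIs per cell, Junb was at 14.9 in PEP3_Trpm8, against 17.8 in all neurons, and was highest in NP_Mrgprd, at 22.8. It was lower in NF2_Ntrk2.Necab2, NF_Calb1 and NF_Pvalb, with log2 fold changes of -2.02, -1.29 and -1.07 (adjusted p = 9.9e-09, 5.5e-07 and 9.9e-07), the last at -0.97 without library 3, and it was called higher in none.

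Egr1 separated the types into an upper and a lower group. Means ran from 74.4 CPM in NF_Calb1 to 124 CPM in PEP1_Dcn in 8 types, and from 15.6 CPM in Th to 31.5 CPM in NP_Mrgpra3 in the other 4, with no overlap of libraries between NF_Calb1 and NP_Mrgpra3. Egr1 was lower in NF2_Ntrk2.Necab2, Th and NP_Mrgprd, with log2 fold changes of -1.95, -1.84 and -1.54 (adjusted p = 9.2e-08, 3.0e-08 and 4.9e-08). It was higher in PEP1_Dcn by 1.26 (adjusted p = 1.6e-07). Values of 1.05 in PEP1_S100a11.Tagln2 and 1.03 in PEP1_Slc7a3.Sstr2 passed but fell to 0.85 and 0.88 after thinning, and to 0.97 and 0.95 without library 5, and the first to 0.92 without library 1. Ier2 was highest in NP_Nts, at 74.5, 74.5, 93.5, 52.8 and 54.1 CPM, and lowest in NF2_Ntrk2.Necab2 at 1.25 to 3.58 CPM. Its log2 fold change was 1.405 in NP_Nts, and it was lower in NF2_Ntrk2.Necab2, NF_Calb1 and Th, at -3.64, -2.34 and -1.68 (adjusted p = 8.2e-07, 5.6e-09, 8.3e-09 and 5.5e-06). In PEP2_Htr3a.Sema5a Ier2 differed by -1.10, and by -0.92 without library 3.

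Atf3 was detected in every neuronal type. Its level was 436, 487, 477, 239 and 209 CPM in NP_Nts and 53.6, 63.9, 72.9, 57.7 and 63.3 CPM in NP_Mrgprd. Libraries 1 to 3 stood above libraries 4 and 5 in NP_Nts, and the lowest NP_Nts value was above all NP_Mrgprd values. Atf3 was higher by 1.49 ± 0.21 in NP_Nts, by 1.34 ± 0.12 in PEP1_Slc7a3.Sstr2 and by 1.24 ± 0.18 in PEP3_Trpm8 (SE, adjusted p = 1.8e-05, 1.5e-07 and 2.5e-05). PEP3_Trpm8 libraries also differed, at 484 and 464 CPM in libraries 1 and 2, with 9 and 18 cells, and 298, 226 and 245 CPM in libraries 3 to 5. Per cell, Atf3 in PEP3_Trpm8 was at 9.38 UMIs, against 9.87 in all neurons. It was lower in NP_Mrgprd, at -1.43 ± 0.09 (SE, adjusted p = 3.8e-09), and at -1.203 ± 0.19 in NF2_Ntrk2.Necab2 (SE, adjusted p = 7.0e-05). No neighbours in its order were free of overlap, and the ratio of highest to lowest type was 5.93 in CPM. As UMIs per cell the order changed, with NF_Pvalb highest at 16.4 and NF2_Ntrk2.Necab2 lowest at 5.86, a ratio of 2.80. After thinning, 62.7% of neurons had an Atf3 UMI.

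Gap43 had the widest range of the 10 genes over neuronal types. It was at 1496, 1522, 1630.2, 1903 and 1548 CPM in PEP2_Htr3a.Sema5a, at 3.85, 20.1, 4.62, 4.79 and 6.25 CPM in Th, and at 7.67, 4.94, 5.04, 5.61 and 9.44 CPM in NF_Pvalb. The highest and lowest types differed 248-fold in CPM and 268-fold in UMIs per cell. NF_Pvalb and Th held 55 and 138 Gap43 UMIs in all, so these ratios and their fold changes below rest on levels near the floor. In the order of types, all 5 libraries of PEP1_Slc7a3.Sstr2 (854 to 1006 CPM) lay above PEP3_Trpm8 (476 to 619), PEP3_Trpm8 above NF_Calb1 (138 to 196), and NP_Mrgprd (33.3 to 62.4) above Th.

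The 5 types in which Gap43 was called higher were PEP2_Htr3a.Sema5a, PEP1_Dcn, PEP1_S100a11.Tagln2, NP_Mrgpra3 and PEP1_Slc7a3.Sstr2. Their log2 fold changes were 2.43, 2.02, 1.69, 1.45 and 1.348 (adjusted p = 3.0e-09, 2.7e-09, 2.7e-07, 2.8e-06 and 1.8e-08). It was called lower in NF_Pvalb, Th, NP_Mrgprd, NF2_Ntrk2.Necab2 and NF_Calb1, at -5.90, -5.54, -3.62, -3.32 and -1.45 (adjusted p = 6.4e-13, 7.6e-10, 5.9e-11, 4.2e-09 and 2.4e-08). The share of cells with a Gap43 UMI after thinning to 10000 UMIs was 5.60% in Th and 6.19% in NF_Pvalb, below the 17.3% of satellite glia. The glia were shallower, with a median depth of 17729 UMIs against 56281 and 66720, so their share is no common floor. Per cell Gap43 was at 0.595 UMIs in Th, 0.487 in NF_Pvalb and 0.329 in satellite glia. Whether the 2 neuronal shares are background was not tested. Unthinned, 58 of 232 Th cells had a Gap43 UMI, 34 of 113 NF_Pvalb cells and 62 of 249 satellite glia.

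In NP_Nts, Gap43 differed between libraries. It was at 83.3, 523, 97.1, 39.4 and 63.9 CPM, and library 2 was more than 5 times as high as any other. The log2 fold change of -1.45 ± 0.52 (SE, adjusted p = 0.0271) was not called, and it was -2.63 without library 2 and -2.09 with the replicate block, both called. Sox11 in NP_Nts showed the same library, with 2.92, 43.6, 10.6, 1.38 and 1.11 CPM. Its log2 fold change of -3.10 ± 0.63 (SE, adjusted p = 6.3e-04) was called and became -4.74 without library 2. In library 2, 6 of the 36 NP_Nts cells had at least 50 Gap43 UMIs and at least 3 Sox11 UMIs, as did 1 of 41 cells in library 3 and none in libraries 1, 4 and 5. These 6 cells were picked by these same counts after seeing the data, so a fall without them was built in. Without them library 2 stood at 153 CPM of Gap43, still above every other library. Its Sox11 was then at 3.11 CPM, within the range of the others.

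Sox11 was highest in PEP3_Trpm8, at 153, 191, 131, 155 and 146 CPM, and it was called higher there by 1.24 ± 0.12 (SE, adjusted p = 5.2e-07), although UMIs per cell were 4.92 against 4.97 in all neurons. It was also higher in PEP1_S100a11.Tagln2, at 144 ± 35.1 CPM (SD, n = 5), by 1.25 ± 0.14 (SE, adjusted p = 5.4e-06) and with 8.54 UMIs per cell. It was lower in Th, at 31.9 ± 6.56 CPM (SD, n = 5), with a log2 fold change of -1.13 ± 0.14 (SE, adjusted p = 7.9e-06), and of -0.93 after thinning. In NF2_Ntrk2.Necab2, the type in which the 8 other testable genes were lower, Sox11 was at 60.8 ± 14.03 CPM (SD, n = 5) with a log2 fold change of -0.19 ± 0.14 (SE, adjusted p = 0.270). In NP_Nts 2.75% of cells had a Sox11 UMI after thinning (exact interval 1.38% to 4.87%), against 1.61% of satellite glia (0.439% to 4.06%) and 42.5% of all neurons. The pooled NP_Nts share thus cannot be told from that of satellite glia, which were shallower, and background was not tested. The share came mostly from library 2, with 8 of 36 cells, or 22.2% (10.1% to 39.2%). Library 2 was singled out by its high value, and the intervals cover counting error only and not the spread between mice. Without library 2 it was 3 of 364 cells, or 0.824% (0.170% to 2.39%).

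Levels of most members followed the depth of a type. Over the 12 neuronal types the correlation of log2 CPM with log2 median UMIs per cell was -0.88 for Atf3, -0.85 for Fos, -0.73 for Junb, -0.69 for Jun, -0.68 for Fosb, -0.62 for Ier2 and -0.59 for Egr1, but -0.33 for Gap43 and -0.30 for Sox11. These are descriptions over types that share libraries, and the depth enters both axes because CPM divides by the total. Within NP_Mrgprd, cells with total UMIs above the median of their library held 1.78 times the UMIs of the others (1.66 to 2.10 over libraries). They held 1.55 times the Fos UMIs, 1.51 times the Jun UMIs, 1.52 times the Atf3 UMIs and 1.89 times the Junb UMIs, but 1.08 times the Fosb UMIs, 1.19 times the Gap43 UMIs and 1.24 times the Sox11 UMIs (medians of 5 libraries).

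**Figure D3:**
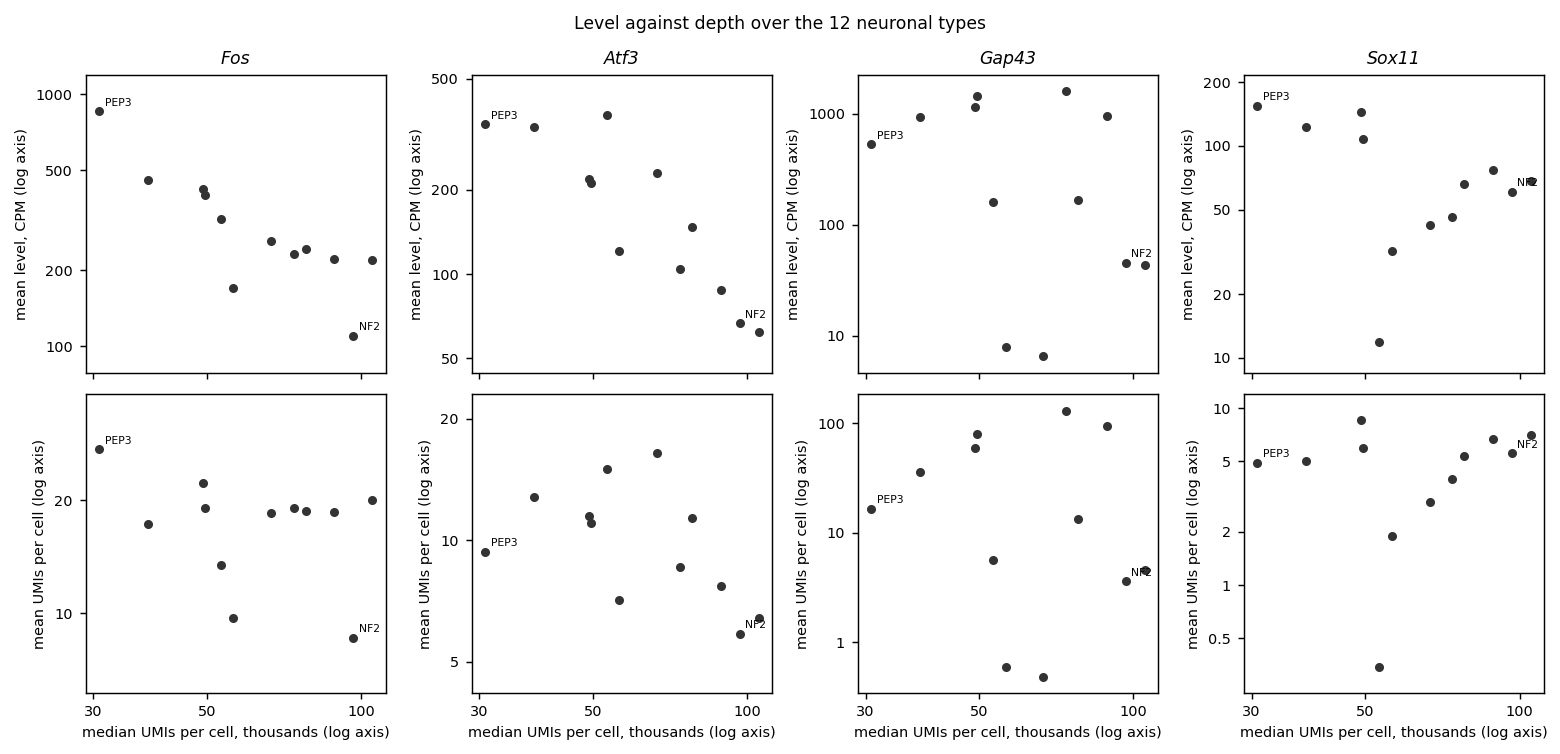
Mean CPM over the 5 libraries (top row) and mean UMIs per cell (bottom row) of Fos, Atf3, Gap43 and Sox11 against the median UMIs per cell of the 12 neuronal types, on log axes, with 1 point per type. Fos and Atf3 in CPM fall with depth (r = -0.85 and -0.88), Gap43 and Sox11 less so (-0.33 and -0.30), and in UMIs per cell PEP3 has the highest and NF2 the lowest Fos.

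Libraries also moved several types at once. Fos was highest in library 1 in 10 of the 12 neuronal types, with a median of 1.24 times the mean of the type. Junb was highest in library 3 in 9 of 12 types and Jun in 7, at medians of 1.27 and 1.25 times the type mean. Library 3 held 61 of the 188 cells above 10% mitochondrial share, and library 1 the fewest cells. Junb was lowest in library 2 in 6 types. The part of library quality in these levels was not tested, and sex was not assigned.

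To see which members vary together within a type, neurons were thinned to 10000 UMIs and divided in each type and library at the median count of Fos or of Atf3, with equal numbers of cells above and at or below it. No gene was called in either division by the test without a block, 0% of 9432 genes for Atf3 and 0% of 9141 for Fos, and no member was among calls. At an unadjusted p under 0.05 there were 237 genes (2.51%) for Atf3 and 163 (1.78%) for Fos, and DESeq2 called 0 and 1. Both sides of a division came from the same mice, and with the replicate block 3 genes were called for Atf3 and 6 for Fos, none of them a member, while 136 and 134 genes had an adjusted p under 0.05.

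In neurons with more Atf3, Fos was at 463, 369, 395, 415 and 333 CPM, against 240.4, 237, 284, 288 and 217 CPM in those with less, and the sides did not overlap. The blocked log2 fold change was 0.59 ± 0.05 (SE, adjusted p = 5.0e-12), and 0.63 with an adjusted p of 0.0804 without the block. Jun differed by 0.52, Fosb by 0.60, Egr1 by 0.53, Ier2 by 0.50 and Junb by 0.38 in the blocked fit (adjusted p = 1.1e-12, 7.2e-06, 5.6e-05, 0.0046 and 1.1e-07), each higher in 5 of 5 libraries. Sox11 differed by 0.36 (adjusted p = 0.0067) in 5 of 5 libraries. Gap43 differed by 0.08 (adjusted p = 0.594), higher in 4 of 5. Without the block the adjusted p of these 7 genes was 0.50 or more, and none of the differences reached 2-fold. Neurons with more Atf3 had fewer mean UMIs before thinning in libraries 1, 3, 4 and 5, such as 65187 against 71981 in library 3. In library 2 they had 88383 against 88017. The part of this in the differences was not tested.

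In neurons with more Fos, Atf3 was at 256, 262, 238, 233 and 192 CPM, against 136, 151, 172, 169 and 111 CPM in those with less. The blocked log2 fold change was 0.65 ± 0.05 (SE, adjusted p = 2.2e-14), and the adjusted p was 0.115 without the block. Fosb differed by 0.83, Egr1 by 0.74, Junb by 0.47 and Jun by 0.43 in the blocked fit (adjusted p = 5.2e-12, 2.0e-11, 3.7e-13 and 4.1e-13). Each was higher in 5 of 5 libraries. Without the block only Egr1 had an adjusted p under 0.05 (adjusted p = 0.0472). Ier2 was higher in 3 of 5 libraries, with a blocked value of 0.24 (adjusted p = 0.385). Sox11 was at 0.22 (adjusted p = 0.120) in 4 of 5, and Gap43 at -0.04 (adjusted p = 0.780), higher in 2 of 5. Neurons with more Fos had fewer UMIs before thinning, with means of 64745 to 80858 against 68180 to 95069 on the other side, and the part of this in the differences was not tested.

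Outside the members, the blocked fits called Dcn (1.86), Creb5 (1.31) and Chrnb4 (-1.39) with Atf3. With Fos they called 6 genes, of which Klf2 (1.49), Ier5 (1.34), Sstr1 (1.17) and Sparc (1.10) were higher in all 5 libraries. Klf2 and Ier5 are themselves immediate early genes, and Sparc, an extracellular matrix gene, was at 46.5 CPM in the Fos-high neurons of library 3 and at 6.41 to 22.9 CPM in the others.

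**Figure D4:**
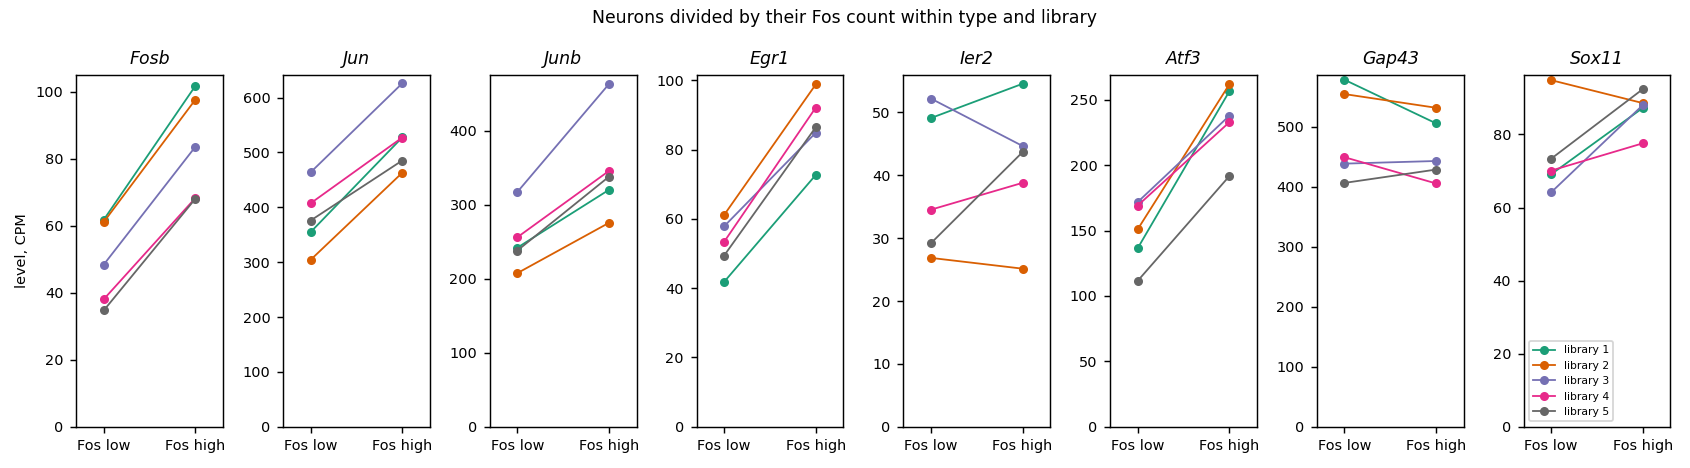
Level in CPM (y axis, from 0) of 8 genes in neurons at or below and above the median Fos count of their type and library (x axis), after thinning to 10000 UMIs, with 1 line per library. Fosb, Jun, Junb, Egr1 and Atf3 go up in 5 of 5 libraries, Sox11 in 4, Ier2 in 3 and Gap43 in 2.

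Joint detection in single neurons was described by an odds ratio within type for each of 36 pairs of 9 genes. Junb and Atf3 had a median odds ratio of 2.24 over 5 libraries (1.55 to 2.73), Fos and Atf3 2.19 (1.18 to 2.67), Fos and Egr1 2.14 (1.63 to 6.91) and Fos and Fosb 1.82 (1.55 to 2.43), all above 1 in 5 of 5 libraries. Junb and Egr1 had the highest median, 2.43, but were at 0.86 in library 1. The lowest medians were those of Gap43 with Jun (0.88), Fos (0.92), Egr1 (0.93) and Junb (0.94), each above 1 in 2 of 5 libraries. Gap43 and Sox11 were at 1.03. After thinning, 92.9% to 100% of cells had a Gap43 UMI in the PEP types and NP_Mrgpra3, against 5.60% in Th and 6.19% in NF_Pvalb. These types therefore add little to the ratios with Gap43, which rest mostly on the other neuronal types.

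Sprr1a, a small proline-rich protein of the skin barrier that injured sensory neurons induce, was rare. It had 193 UMIs in all, of which 177 were in library 2, and 28 of the 3047 neurons had at least 1 UMI. No UMI was found in the 305 satellite glia and endothelial cells, which allows a share of cells with a UMI of up to 0.984% at their median depths of 17729 and 16889 UMIs, below those of neurons, and sets no limit on cells that express the gene. At least 3 UMIs, a minimum chosen after seeing the data, were found in 10 of 470 neurons of library 2, or 2.13% (exact interval 1.02% to 3.88%), and in 1 of 1341 neurons of library 5, or 0.0746% (0.0019% to 0.415%). Libraries 1, 3 and 4 had none, which allows shares of up to 2.11%, 0.794% and 0.419%. These limits and the exact intervals are of different kinds and take cells, not mice, as units. Library 2 also drew attention by its high value, so they do not compare the libraries. The intervals cover counting error only.

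The 11 neurons were spread over 6 annotated types: 4 were NP_Mrgprd, 3 NF_Calb1, and 1 each NP_Mrgpra3, NP_Nts, NF2_Ntrk2.Necab2 and PEP1_Slc7a3.Sstr2. They held 3 to 38 Sprr1a UMIs of 21037 to 128492 UMIs in all, and 2 of them had mitochondrial shares of 12.5% and 13.4%. Sox11 was above the median of the cell's own type and library in 10 of the 11, with a median of 292 CPM against 32.9 CPM for the medians they were compared with. Gap43 was above it in 10 of 11 (763 against 83.4 CPM) and Atf3 in 9 of 11 (261 against 98.7 CPM). Of the immediate early genes, Fosb was above it in 8, Jun in 7, Junb and Egr1 in 6, Fos in 5 and Ier2 in 2 of 11, and the difference from the injury genes was not tested.

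Of 26 other axon injury and regeneration genes, a gene was above the own median in a median of 7 of the 11 cells, against 4 over the 12964 genes with a UMI in these cells. For 8 of the 26 the own median was above 0 for every cell, and there the medians were likewise 7 cells and, over 5322 genes, 5. Of these 8, Gadd45a, a DNA damage response gene, and Smad1, a transducer of BMP signals, were above it in 10 cells, Stmn2 in 8, Stat3, Klf7 and Tubb2b in 7, and Bdnf and Dpysl3 in 6. For the other 18 the own median was 0 for 1 or more cells, so that 1 UMI counted as above: Flrt3, a membrane protein of axon guidance, and Stmn4 were above it in 11, Sema6a and Tubb6 in 10, Gal in 5 and Vip in none. The gene that names the type, or Sst for NP_Nts, was below the own median in 8 of the 11 cells and above it in 3. The 3 were the NF_Calb1 cells, with Calb1 at 283, 67.1 and 442 CPM against a type median of 15.4 CPM. Mrgprd had no UMI in 3 of the 4 NP_Mrgprd cells, where the type medians were 230 CPM in library 2 and 215 CPM in library 5, and 18 UMIs in the other. Mrgpra3 had no UMI in the NP_Mrgpra3 cell (type median 509 CPM), and Sst none in the NP_Nts cell (type median 399 CPM). Nts, the gene in the name of that type, was above the median there, at 3229 CPM against 658 CPM. With Nts in place of Sst that cell would thus count as above. Over the 11 cells Nts was above the own median in 10, at a median of 701 CPM against 0 for the medians they were compared with. As 10 of the 11 cells came from 1 library, these values describe that library, and without library 2 only 1 such cell is left.

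**Figure D5:**
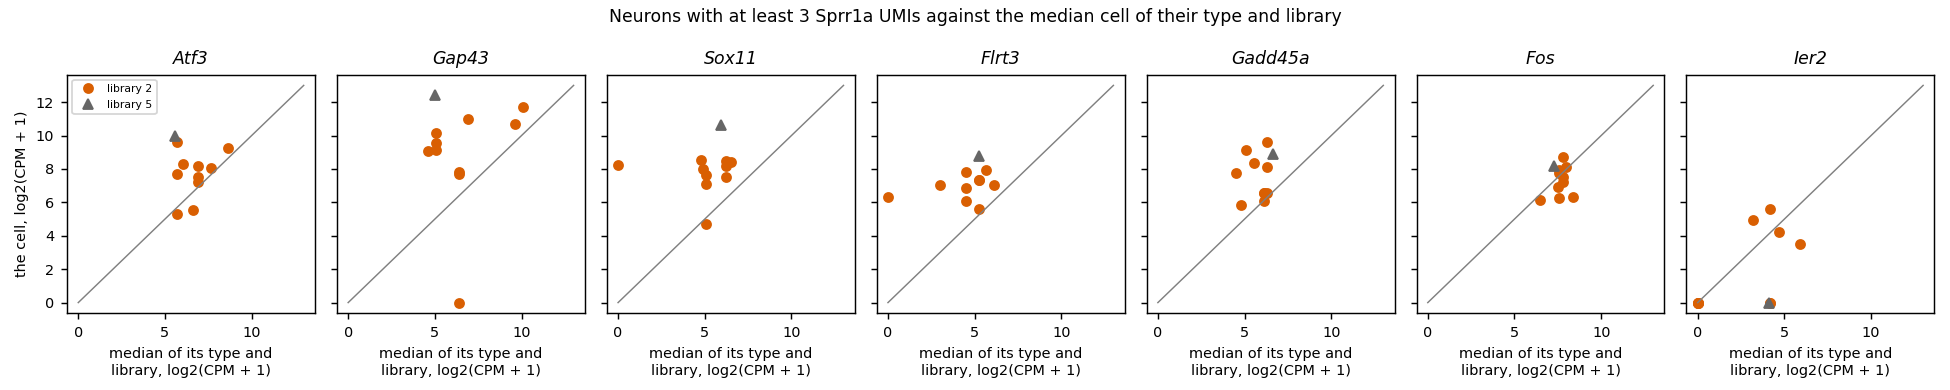
Each of the 11 neurons with at least 3 Sprr1a UMIs (y axis, log2(CPM + 1)) against the median of its type and library (x axis, same scale), for 7 genes, with circles for library 2, a triangle for library 5 and a line of equality. Points lie above the line in 11 of 11 cells for Flrt3, in 10 for Gap43, Sox11 and Gadd45a, in 9 for Atf3, in 5 for Fos and in 2 for Ier2.

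Wider lists were described by their counts and medians. Of 27 other immediate early genes, 24 of the 26 testable were higher in satellite glia and 26 of 26 in endothelial cells than in neurons, none lower, with median log2 fold changes of 2.82 and 3.83 (all genes, -0.35 and -1.25). In these comparisons 54.2% and 58.7% of all genes were called. Nr4a1, an orphan nuclear receptor, was at 143 ± 70.6 CPM in satellite glia, 248 ± 96.7 in endothelial cells and 4.44 ± 0.84 in neurons (SD, n = 5). Between satellite glia and endothelial cells 3 were higher and 14 lower, with a median of -1.09 (all genes, 0.05), where 43.7% of all genes were called. In neuronal types at most 10 members were called. The calls were 10 lower and none higher of 25 in NP_Mrgpra3 (median -0.72, all genes -0.06), and 8 lower and 1 higher both in NF2_Ntrk2.Necab2 (of 24, median -0.72, all genes -0.07) and in NP_Mrgprd (of 26, median -0.40, all genes -0.09). These were 40.0%, 37.5% and 34.6% of the tested genes, where 13.8%, 20.5% and 25.7% of all genes were called. NF_Pvalb had 7 lower and 3 higher of 25 (median -0.16, all genes -0.04), and Th 5 lower and none higher (median -0.44, all genes 0.02). That was 40.0% and 20.0% of the tested genes, where 30.3% and 19.7% of all genes were called, so Th was near the background share. PEP1_Dcn and PEP2_Htr3a.Sema5a each had 5 higher and none lower of 25 (medians 0.30 and 0.25, all genes -0.01 and -0.02), and PEP1_Slc7a3.Sstr2 7 higher and 2 lower (median 0.51, all genes -0.04). Called shares were 20.0%, 20.0% and 36.0% of the tested genes, where 15.3%, 18.5% and 18.9% of all genes were called. NF_Calb1, NP_Nts, PEP1_S100a11.Tagln2 and PEP3_Trpm8 had 2 to 4 called in each direction. There 32.0%, 28.0%, 32.0% and 16.0% of the tested genes were called, against 29.7%, 23.5%, 12.5% and 18.9% of all genes. PEP1_Slc7a3.Sstr2 held Klf6, a zinc finger factor, with a log2 fold change of 2.53, and Dusp6, a phosphatase of ERK, with -4.28.

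Of 10 heat shock genes, which respond to protein misfolding, 4 were higher and 2 lower in satellite glia, and likewise 4 and 2 in endothelial cells, 60.0% of the list in each where 54.2% and 58.7% of all genes were called. Hspa1a was at 31.01 ± 9.24 CPM in neurons, at 61.4 to 636 CPM in satellite glia and at 51.5 to 1257 CPM in endothelial cells, so its libraries varied widely. Of 26 other axon injury and regeneration genes, 12 of the 21 testable were lower in Th and none higher (median -1.77, all genes 0.02), where 19.7% of all genes were called. In NF2_Ntrk2.Necab2 15 were lower and 2 higher of 21 (median -1.65, all genes -0.07), where 20.5% were called. NF_Calb1 had 10 lower and 4 higher of 21 (median -0.62, all genes -0.02), where 29.7% were called, NF_Pvalb 9 and 3 of 21 (median -0.69, all genes -0.04), where 30.3% were called, and NP_Mrgprd 9 and 3 of 22 (median -0.20, all genes -0.09), where 25.7% were called. In PEP1_Slc7a3.Sstr2 8 were higher and 3 lower of 21 (median 0.50, all genes -0.04), where 18.9% were called, with Gal, the galanin gene, at 1212 to 1582 CPM and higher by 3.49. In the 6 other neuronal types 6 to 9 were called, with medians from -0.53 to 0.45. That was 27.3% to 42.9% of the tested genes, where 12.5% to 23.5% of all genes were called. In satellite glia 8 were higher and 11 lower of 21 (median -1.54, all genes -0.35) and in endothelial cells 8 and 10 (median 0.35, all genes -1.25), where 54.2% and 58.7% of all genes were called. In satellite glia the list held Tnfrsf12a, the TWEAK receptor gene, at 933 ± 182 CPM against 10.9 ± 1.66 in neurons (SD, n = 5).

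The genes most like a member over the mean log2(CPM + 1) of the 14 types, among 10827 genes with at least 10 CPM in a type, included other members. Egr1 was the nearest gene to Fosb and Fosb to Egr1, with a correlation of 0.95, and Junb was the nearest to Ier2 (0.97). Junb itself was nearest to Irf9 (0.99), Jun to Oasl2 (0.92), Fos to Cnbp (0.93) and Atf3 to Pknox1 (0.90). Gap43 was nearest to Kcnk4 (0.95), a potassium channel gene, and Sox11 to Ppp2r2b (0.94). These correlations describe 14 types that share their 5 libraries, and Sprr1a stayed below 10 CPM in all types, so none was named for it.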

How the data were processed

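Single cells of lumbar ganglia from 5 untreated mice were analysed from the deposited matrix, in which the authors gave raw UMI counts per gene and cell, not normalized. According to the methods and the submitters' processing notes, the authors counted UMIs with Cell Ranger 2.0.0 on mm10, set limits of 500 and 15000 detected genes per cell and of 10% mitochondrial reads, clustered integrated cells with Seurat and named clusters from marker genes. The deposited annotation assigned every cell to a named type, which was taken over unchanged, with NF_Ca1b1 read as NF_Calb1. No cell was removed and no doublet caller was run. The matrix held 17271 entries, of which 4 name no gene and carried 143 of 224553219 UMIs; they were left out.

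UMIs were summed per type and library, since the mouse and not the cell is the replicate. The files do not tie library identifiers to sample labels, and animal and technical spread cannot be separated. Tests used edgeR 4.0.16 in R 4.3.3 (filterByExpr, TMM, quasi-likelihood test). P-values were adjusted after Benjamini and Hochberg for all genes tested in a comparison, and a call needed an adjusted p under 0.01 and at least 2-fold. Levels were CPM of summed counts. For shares and divisions each cell was thinned to 10000 UMIs; all cells were deeper. Odds ratios were of the Mantel-Haenszel type, with type as stratum. Intervals were exact at 95%, and where none was found the limit is 3 counts of the total.

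Both sides of a comparison came from the same mice, so library numbers pair the sums. After removal of group means, both sums of a library correlated at 0.0089 to 0.410, above 0.1 in 47 of 75 cases. The test without the block was reported as the main one, and the replicate block as an alternative.

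The members, the lists and the markers were chosen with earlier results of these data known. Named genes are the members, up to 6 called genes per wider list, up to 10 called genes per division that moved the same way in 5 libraries, and genes among the 3 most like a member, of which 1 is not reported here. Genes beside Sprr1a were named after the cells had been seen. Alternatives were DESeq2 1.42.0, no low-count filter, sums of at least 10 cells, cells up to 10% mitochondrial share, thinning, a second seed and leaving out each library. The test was first checked on simulated counts with known changes. Gene positions are from the GENCODE annotation of GRCm38, which matched the chromosome and strand in the names of all 10 genes, and promoters from RefSeq on GRCm38.p6. Python 3.11.15 with numpy 2.4.6, scipy 1.17.1 and pandas 2.3.3 was used.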

Additional observations from a re-analysis of the deposited data

Results flagged for a closer look

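The highest or lowest library was examined in 28 groups of 5 libraries, each member in neurons, satellite glia and endothelial cells where it had UMIs, for a gap to the nearest other library above 0.71 of the whole range. Chance gives about 1 such gap in 20 groups, and 2 were found. Sprr1a in neurons was at 4.29 CPM in library 2 and at 0.0602 to 0.159 CPM in the other 4, a gap of 0.977 of the range. Sox11 in endothelial cells was at 3.31 CPM in library 2 and at 0 in the others, which is a single UMI.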

How the results depend on the processing

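Of 149 tests of a member, 67 were called, and 54 of these calls were kept under every alternative. None changed direction. The 13 others lost the call in at least 1 alternative with the same sign: 8 after thinning to 10000 UMIs, 5 without the low-count filter, 2 with DESeq2, 1 with sums of at least 10 cells, 1 with cells up to 10% mitochondrial share, and 2, 2, 3 and 2 without libraries 1, 2, 3 and 5. Calls were gained as well: 7 after thinning, 2 without library 2, 1 without library 3, 1 with sums of at least 10 cells and 42 at an adjusted p under 0.05 without a minimum fold. The replicate block added 1 call, Gap43 in NP_Nts, and removed none. The counts of all genes called stayed within 1.5 times the main count except as follows, and the cause was not tested. Thinning makes the totals smaller and also gives each cell the same weight in a sum.

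After thinning, the neuronal types in the order NF_Calb1, NF_Pvalb, NF2_Ntrk2.Necab2, NP_Nts, NP_Mrgpra3, NP_Mrgprd, PEP1_Dcn, PEP1_S100a11.Tagln2, PEP1_Slc7a3.Sstr2, PEP2_Htr3a.Sema5a, PEP3_Trpm8 and Th had 2252, 2031, 1046, 1703, 627, 1899, 750, 613, 1147, 1177, 1268 and 1113 calls over all genes, and endothelial cells against neurons 4187. At an adjusted p under 0.05 without a minimum fold they numbered 8232, 7523, 5739, 6592, 4229, 9047, 4698, 3854, 5577, 6819, 5572 and 5512 in the same order. Satellite glia against endothelial cells gave 3389 calls without the low-count filter. In the division by Atf3 the replicate block gave 3 calls, thinning to 5000 UMIs 1, and an adjusted p under 0.05 alone 0. In the division by Fos the block gave 6 calls, DESeq2 1 and an adjusted p under 0.05 alone 1.

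As a mean of per-cell CPM, the level in neurons was 319 for Fos, 62.5 for Fosb, 436 for Jun, 67.4 for Egr1, 34.1 for Ier2, 187 for Atf3, 469 for Gap43 and 80.5 for Sox11. The share of neurons with a UMI at 5000 UMIs and unthinned was 66.6% and 98.4% for Fos, 21.0% and 75.5% for Fosb, 72.5% and 98.4% for Jun, 66.6% and 99.0% for Junb, 25.04% and 82.0% for Egr1, 14.2% and 65.9% for Ier2, 46.2% and 93.7% for Atf3, 47.9% and 84.2% for Gap43, and 29.8% and 78.01% for Sox11. Depth thus set the shares, and sums of few cells, such as 3 NF2_Ntrk2.Necab2 cells in library 1, limit single values.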
